A study of Homo sapiens with 12 samples.

Results

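The genes described are 8 known targets of the transcription factor NRF2 that encode detoxifying enzymes, an exporter and a stress-responsive protein: NQO1, OSGIN1, EPHX1, UGDH, ABCC1, AKR1B1, AKR1C1 and CBR1. They were taken by symbol, through the Ensembl gene ID, from a table of read counts that lists 60710 genes, and each of the 8 symbols matched 1 ID. The RNA came from SH-SY5Y, an established human neuroblastoma line often used as a model of neurons, in 4 groups of 3 libraries. Every well held 2 mL of medium and received 10 µL of DMSO for 5 h. In the control group the DMSO was given alone, and in the other groups it carried HPPE, zinc protoporphyrin or tin protoporphyrin to a final concentration of 5 µM. The labels do not spell out HPPE. Zinc and tin protoporphyrin hold zinc or tin in the porphyrin ring in which heme holds iron. The labels name 1 cell line and 1 time point and do not say whether the 3 libraries of a group came from separate cultures, so p-values measure the spread between these libraries, which may be technical.

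NRF2, encoded by NFE2L2, is held at a low level in unstressed cells by KEAP1, an adaptor that sends it for degradation. Electrophiles that modify KEAP1 free NRF2, which pairs with small MAF proteins and binds the antioxidant response element in the promoters and enhancers of its targets, where the repressor BACH1 competes for the same element. The detoxifying targets carry out successive steps: reductases such as NQO1, CBR1 and the AKR enzymes reduce quinones and carbonyls, EPHX1 opens epoxides, UGDH makes the sugar donor for glucuronidation, and ABCC1 exports conjugates from the cell. NQO1 is widely used as a reporter gene of NRF2 activity.

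Depth was uneven, from 1337028 counts (zinc protoporphyrin replicate 1) to 9145399 (tin protoporphyrin replicate 2), and DMSO control replicate 3 held 1514595. Levels are given as CPM (counts scaled to a library of 1e+06, after TMM scaling of library size), and 3 counts corresponded to 0.337 CPM in the deepest library and 2.26 CPM in the shallowest, for counting error only. The libraries carried the noradrenergic markers fixed for SH-SY5Y, such as DBH at 318.0 to 351.8 CPM in every library, while TH had at most 2 counts. Of the markers of other cells, PTPRC, PECAM1, ALB, PRRX1 and GFAP had at most 3 counts in any library, EPCAM reached 1.98 CPM and COL1A1 ran from 48.1 to 57.6 CPM in all 4 groups. Libraries differed along transcript length, within and between groups. For each library, deviations from the mean of all 12 libraries were correlated with length across 10952 genes that are not independent replicates. The Spearman correlation ran from -0.54 (tin protoporphyrin replicate 1) to 0.57 (zinc protoporphyrin replicate 3). It was negative in each HPPE library and positive in each zinc protoporphyrin library. HPPE replicates 2 and 3 differed little more than sampling noise (chi-square of 1.11 per degree of freedom, against 1.49 to 17.4 for other pairs of 1 group) and were kept as 2 libraries.

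All 8 members passed the filter on low counts that left 16366 genes for testing. In this bulk RNA, fewer cells expressing a gene and less RNA per cell cannot be told apart. Statements that the libraries of groups overlap or stand apart describe single genes and were not counted over all genes. Differences were tested with edgeR's quasi-likelihood test in 1 model of all 12 libraries, with ± for the standard error of a log2 fold change and for the SD of CPM over 3 libraries, and a gene was called at a Benjamini-Hochberg adjusted p under 0.05 over all genes tested. Compared per kilobase of the longest coding transcript, the aldose reductase gene AKR1B1 had the highest level of the members in the DMSO control, 119.6 ± 23.6 CPM per kb, and ABCC1 (25.0 ± 1.73) and UGDH (17.3 ± 0.868) followed. CBR1 (9.66 ± 3.83), EPHX1 (9.58 ± 0.673) and NQO1 (7.67 ± 0.825) lay close together, with CBR1 spread across both others. OSGIN1 (2.51 ± 0.361) and AKR1C1 (0.320 ± 0.132) were lowest. Annotated coding transcripts run from 744 to 6705 nt for AKR1C1, 891 to 2912 nt for NQO1, 434 to 2391 nt for OSGIN1 and 433 to 3216 nt for UGDH. The order, here and with HPPE, therefore depends on the length taken. With HPPE, on the same CPM per kb scale, NQO1 stood at 42.6 ± 3.72, below AKR1B1 alone (132.8 ± 10.9), and OSGIN1 at 30.8 ± 1.78 was level with ABCC1 at 30.8 ± 0.371.

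HPPE raised 4 of the 8 members over the DMSO control, NQO1, OSGIN1, AKR1C1 and ABCC1, where 2.57% of all genes tested were called higher and 1.47% lower. No member was called lower, and all 8 had a positive log2 fold change, with a median of 0.49 against 0.02 over all genes. The 8 genes were chosen with earlier results of these data known, so these counts describe them and do not test the set. In this comparison log2 fold change and transcript length had a Spearman correlation of -0.24 across 16185 genes. With a correction for length and GC content, an alternative chosen after seeing the data, the 4 members were called again and CBR1 with them. Over all 22 alternative fits the calls of NQO1 and OSGIN1 held, while that of AKR1C1 was lost in 2 and that of ABCC1 in 11. Against the same controls, zinc and tin protoporphyrin each gave 0 calls among the 8. Of all genes tested, 1.84% were called higher and 0.415% lower with zinc protoporphyrin, and 1.9% and 0.379% with tin protoporphyrin.

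**Figure D1:**
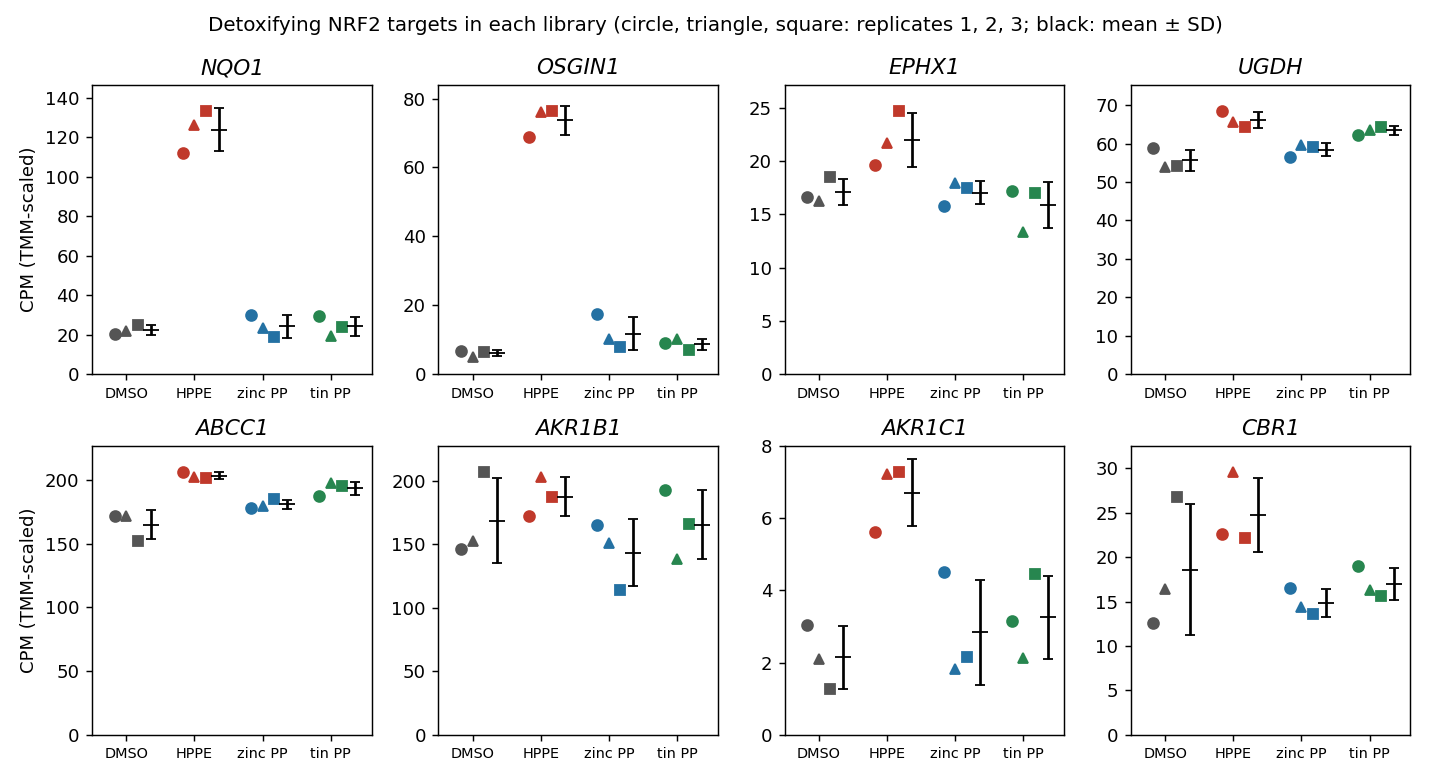
Level of each member in CPM (vertical axes from 0) in every library, by group (PP, protoporphyrin), with replicates 1, 2 and 3 as circle, triangle and square and the group mean ± SD (n = 3) in black. NQO1 and OSGIN1 stand far above all other libraries with HPPE, AKR1C1 and EPHX1 stand above them by less, and the control libraries of AKR1B1 and CBR1 span most of the range of the other groups.

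NQO1 (ENSG00000181019.13, GRCh38 chr16:69706996-69726951, minus strand) encodes NAD(P)H quinone dehydrogenase 1, which reduces quinones directly to hydroquinones and so bypasses the reactive semiquinone. Its level was 20.1, 22.0 and 24.9 CPM in DMSO control replicates 1, 2 and 3 and 112, 126 and 133 CPM with HPPE. It was 30.1, 23.4 and 18.9 CPM with zinc protoporphyrin and 29.3, 19.6 and 23.7 CPM with tin protoporphyrin. The lowest HPPE library lay far above the highest of the other 9, while the zinc, tin and control libraries overlapped. With HPPE, NQO1 rose by 2.51 ± 0.15 on the log2 scale, a 5.69-fold increase (95% interval 4.59 to 7.07, adjusted p 1.16e-08). With zinc protoporphyrin the log2 fold change was 0.04 ± 0.17 (95% interval -0.32 to 0.40) and with tin protoporphyrin 0.16 ± 0.16 (-0.18 to 0.49), neither called. The HPPE call for NQO1 held in each of the 22 alternative fits, at 2.43 to 2.58. An antisense gene, AC092115.2, shares 17.7% of NQO1's exonic bases, and reads of the pair cannot be told apart if strand was not used in counting.

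OSGIN1 (ENSG00000140961.14, chr16:83948282-83966332, plus strand) encodes oxidative stress induced growth inhibitor 1, a protein linked to growth arrest and cell death under oxidative stress. The window of 250 bases before to 50 bases after its RefSeq transcription start holds 1 copy of TGACTCA, the core bound by AP-1 factors. It is shown with the core in capitals, from chr16:83953134-83953158 (GRCh38.p14, plus strand), in an intron of the longest gene model.
OSGIN1: ggcccctgcTGACTCAcgcttatga
This core was looked for after the sequence had been seen. It occurs within 250 bases upstream, on either strand, in 4.20% of 35116 RefSeq windows, and in none of the other members' windows that were matched.

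OSGIN1 had the steepest change of the members. Its level was 6.61, 5.02 and 6.38 CPM in the control libraries and 68.8, 75.95 and 76.3 CPM with HPPE. With zinc protoporphyrin it was 17.3, 10.1 and 7.94 CPM and with tin protoporphyrin 9.03, 10.1 and 6.96 CPM. Each treated library lay above each control library, the zinc and tin libraries overlapped, and the zinc library at 17.3 CPM was the shallowest of all, with 1337028 counts. With HPPE the log2 fold change was 3.64 ± 0.19, a 12.5-fold rise (95% interval 9.48 to 16.4, adjusted p 1.97e-09). Zinc protoporphyrin gave 0.75 ± 0.23 (adjusted p 0.0989) and tin protoporphyrin 0.58 ± 0.22 (adjusted p 0.228), neither called. The zinc value was called in 2 of 22 alternatives, with no filter on low counts (0.72, adjusted p 0.0254) and with the length and GC correction, an alternative chosen after seeing the data (0.81, adjusted p 0.0375). A second annotated gene on the same strand, AC009119.2, shares 13.8% of OSGIN1's 50-base stretches, so reads could be split between them.

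Among the AKR1C genes, which encode aldo-keto reductases acting on steroids, prostaglandins and lipid aldehydes, the member AKR1C1 (ENSG00000187134.14, chr10:4963253-4983283, plus strand) lies beside near copies. The first 60 coding bases are shown because they make the likeness visible: capitals mark each position at which the 3 genes are not identical. They lie at chr10:4963445-4963504 (AKR1C1), chr10:5003776-5003835 (AKR1C2, minus strand) and chr10:5048812-5048871 (AKR1C3) in GRCh38, from the GENCODE release 29 transcripts.
AKR1C1: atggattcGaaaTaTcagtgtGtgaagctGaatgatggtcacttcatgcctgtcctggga
AKR1C2: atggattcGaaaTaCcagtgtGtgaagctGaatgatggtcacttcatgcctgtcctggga
AKR1C3: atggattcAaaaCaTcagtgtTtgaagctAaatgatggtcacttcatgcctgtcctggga
Over the whole coding sequence of 969 bases, AKR1C2 is identical to AKR1C1 at 98.0% of positions and AKR1C3 at 91.8%. Of the 50-base stretches in the coding transcripts of AKR1C1, 27.0% also occur in another gene, nearly all in AKR1C2, so the division of reads between the copies is uncertain.

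AKR1C1 was measured at 3.04, 2.11 and 1.28 CPM in the controls (23, 16 and 2 counts, the last below the floor of 3) and at 5.63, 7.22 and 7.28 CPM with HPPE. Its level was 4.52, 1.83 and 2.17 CPM with zinc protoporphyrin and 3.16, 2.14 and 4.45 CPM with tin protoporphyrin. The HPPE libraries lay above the other 9, and the remaining groups overlapped one another. AKR1C1 rose with HPPE by 1.44 ± 0.31 on the log2 scale (2.71-fold, 95% interval 1.73 to 4.24, adjusted p 0.0114). The call was lost without DMSO control replicate 2 (adjusted p 0.106) or HPPE replicate 2 (1.35, adjusted p 0.0794). With zinc protoporphyrin the log2 fold change was -0.12 ± 0.38 and with tin protoporphyrin 0.39 ± 0.33, neither called. AKR1C3, which shares less with AKR1C1 than AKR1C2 does, went from 3.04, 3.43 and 6.38 CPM to 13.8, 14.8 and 16.8 CPM with HPPE, a rise of 2.04 ± 0.26 (adjusted p 0.000152). AKR1C2 was too low to be tested, at 0 to 3 counts in each control library and 6 to 8 in each HPPE library.

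CBR1 (ENSG00000159228.13, chr21:36069941-36073166, plus strand), a carbonyl reductase of quinones and prostaglandins, was at 12.6, 16.4 and 26.8 CPM in the controls. With HPPE it was at 22.6, 29.6 and 22.2 CPM, with zinc protoporphyrin at 16.6, 14.4 and 13.6 CPM and with tin protoporphyrin at 19.0, 16.3 and 15.6 CPM. Control replicate 3 alone overlapped the HPPE libraries. The log2 fold change with HPPE was 0.62 ± 0.19 (adjusted p 0.0822), not called. It was called without that control library (0.80, adjusted p 0.00778), without tin protoporphyrin replicate 2 (0.64, adjusted p 0.0435), with no filter on low counts (0.62, adjusted p 0.00485) and with the length and GC correction (0.54, adjusted p 0.032). The values were -0.19 ± 0.21 with zinc and 0.05 ± 0.19 with tin protoporphyrin. Another gene on the opposite strand, AP000688.1, shares 18.9% of CBR1's exonic bases.

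AKR1B1 (ENSG00000085662.14, chr7:134442350-134459284, minus strand), aldose reductase, reduces glucose to sorbitol and also clears lipid aldehydes. It was at 146, 153 and 207 CPM in the controls, 172, 202 and 187 CPM with HPPE, 165, 151 and 114 CPM with zinc protoporphyrin and 192, 138 and 165 CPM with tin protoporphyrin. The controls overlapped each treated group and held the highest value of all, the HPPE libraries lay above the zinc libraries, and no comparison with the control was called. The log2 fold changes were 0.18 ± 0.15 with HPPE (adjusted p 0.541), -0.23 ± 0.15 with zinc (adjusted p 0.432) and 0.01 ± 0.14 with tin protoporphyrin (adjusted p 0.994). AKR1B1 and CBR1 have short transcripts (1409 and 1924 nt at most), and both were highest among the controls in replicate 3. Deviations correlated with length at -0.46 in that library, and at -0.47 and -0.45 in HPPE replicates 2 and 3. Whether length shaped the levels of these genes was not tested. After the length and GC correction AKR1B1 stood at 0.12 ± 0.09 with HPPE (adjusted p 0.47).

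EPHX1 (ENSG00000143819.13, chr1:225810092-225845563, plus strand) encodes microsomal epoxide hydrolase, which turns reactive epoxides into diols. Letters that fit TGACNNNGC, the core of the antioxidant response element with N for any base, occur on either strand in 13.3% of the 35116 RefSeq windows of 300 bases. Windows were matched for 7 of the 8 members (not ABCC1), 10 windows in all, and 2 of these hold the core, 1 for EPHX1 and 1 for CBR1. They are shown with the core in capitals, read on the strand that carries it, beside the match in GCLM, a glutathione synthesis gene taken as a reference NRF2 target. The EPHX1 letters come from chr1:225825268-225825292 (plus strand, intron of the longest gene model), the CBR1 letters from chr21:36069857-36069881 (minus strand, before the gene) and the GCLM letters from chr1:93909448-93909472 (plus strand, a UTR of an annotated transcript), all in GRCh38.p14.
EPHX1: agattggcTGACTTGGCaggactgt
CBR1: agctagccTGACTTTGCagaacccg
GCLM: gaagacaaTGACTAAGCagaaatcg
Among other genes looked up that had a window, TXNRD1 and ABCB6 also held the core, and NQO2, AKR1C2 and AKR1C3 did not. A match is a description of these letters and not a measured binding site, and windows without a match say only that these letters are not in them. The OSGIN1 letters shown above, read on the opposite strand, fit this core except for a G in place of its first C. Which factors bind there was not tested.

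Neither EPHX1 nor CBR1 was called with HPPE, whereas GCLM rose by 2.58 ± 0.12 (adjusted p 3.65e-10). EPHX1 was at 16.7, 16.2 and 18.5 CPM in the controls and 19.6, 21.7 and 24.7 CPM with HPPE. It was at 15.8, 17.9 and 17.4 CPM with zinc protoporphyrin and 17.2, 13.4 and 16.98 CPM with tin protoporphyrin. The HPPE libraries were the 3 highest of the 12, and the remaining groups overlapped. The log2 fold change of EPHX1 was 0.37 ± 0.14 with HPPE (adjusted p 0.161), 0.05 ± 0.14 with zinc and -0.08 ± 0.14 with tin protoporphyrin.

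UGDH (ENSG00000109814.12, chr4:39498755-39528311, minus strand) encodes UDP-glucose dehydrogenase, the source of UDP-glucuronate for glucuronidation. It was at 58.9, 53.9 and 54.2 CPM in the controls, 68.4, 65.7 and 64.3 CPM with HPPE, 56.5, 59.5 and 59.1 CPM with zinc protoporphyrin and 62.2, 63.6 and 64.4 CPM with tin protoporphyrin. The HPPE and tin libraries lay above all controls and overlapped each other, by group means in the order HPPE, tin, zinc and control. The log2 fold change was 0.25 ± 0.08 with HPPE (adjusted p 0.0914), 0.07 ± 0.08 with zinc and 0.18 ± 0.08 with tin protoporphyrin (adjusted p 0.279), with 0 calls in the 22 alternatives of each. An antisense gene, UGDH-AS1, shares 7.24% of UGDH's exonic bases.

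ABCC1 (ENSG00000103222.20, chr16:15949577-16143074, plus strand), also known as MRP1, exports glutathione and glucuronide conjugates. It was at 172, 171 and 152 CPM in the controls and 206, 202 and 202 CPM with HPPE. With zinc protoporphyrin it was at 178, 179.8 and 185 CPM and with tin protoporphyrin at 187, 197 and 195 CPM. The 4 groups did not overlap and ran in the order control, zinc, tin and HPPE, a separation that was not counted over all genes. ABCC1 rose with HPPE by 0.29 ± 0.07 on the log2 scale (22.4%, adjusted p 0.0293), while the values for tin (0.22 ± 0.07, adjusted p 0.148) and zinc protoporphyrin (0.12 ± 0.07, adjusted p 0.387) were not called. The HPPE call was lost in 11 of 22 alternatives, at adjusted p-values of up to 0.135. Among these were the removal of DMSO control replicate 1 (0.0849) or 2 (0.0943), of HPPE replicate 1 (0.105), 2 (0.135) or 3 (0.0931), of zinc protoporphyrin replicate 2 (0.0511) and of tin protoporphyrin replicate 3 (0.0592). The transcript of ABCC1 is long (6594 nt), and with the length and GC correction its values were 0.36 ± 0.05 for HPPE (adjusted p 8.78e-05) and 0.22 for tin protoporphyrin (adjusted p 0.0111).

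**Figure D2:**
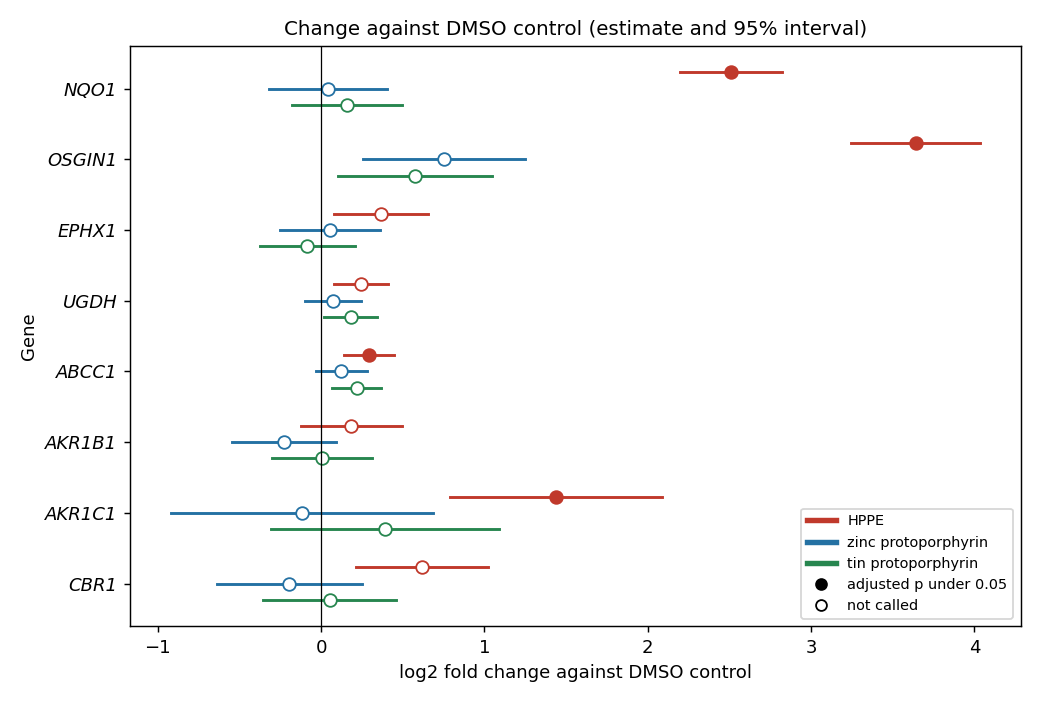
Log2 fold change of each member (rows) against the DMSO control for the 3 compounds, with 95% intervals from edgeR's quasi-likelihood fit; filled points have an adjusted p under 0.05. For HPPE 4 points are filled, and all zinc and tin points lie below 1 on the log2 scale.

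For zinc protoporphyrin against the control, where 1.84% of all genes tested were called higher and 0.415% lower, edgeR's test called 0 of the 8 members and DESeq2 also called 0. Of the 8, OSGIN1 alone had an unadjusted p under 0.05, as had 3051 of all 16366 genes. The members' median log2 fold change was 0.05, against -0.00 over all genes, with 5 of 8 positive against 49.5% of all genes. For tin protoporphyrin, where 1.9% of genes were called higher and 0.379% lower, both tools again called 0 of the 8. OSGIN1, UGDH and ABCC1 had an unadjusted p under 0.05, as had 2410 of all 16366 genes. The median was 0.17 against 0.01, and 7 of 8 were positive against 51.6% of all genes. HMOX1, the heme oxygenase gene that NRF2 and BACH1 both control, lies outside the members. It rose 65.9-fold with HPPE and 7.81-fold with zinc protoporphyrin (46.97 ± 19.2 CPM against 5.90 ± 1.57). With tin protoporphyrin it stood at 7.38 ± 0.53 CPM (adjusted p 0.487). Which of these factors moved HMOX1 was not tested.

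All compounds were given at the same dose and time, so the members were also compared between compounds, in 8 genes and 3 pairs, with p-values adjusted over all genes within a pair. HPPE exceeded zinc protoporphyrin in 4 members, where 6.44% of all genes were called higher and 6.26% lower. NQO1 was 5.52-fold higher (95% interval 4.45 to 6.86) and OSGIN1 7.40-fold higher (5.74 to 9.53), both with an adjusted p of 2.23e-08. AKR1C1 differed by 1.56 ± 0.31 on the log2 scale (adjusted p 0.00845) and CBR1 by 0.81 ± 0.19 (adjusted p 0.0175). The AKR1C1 call was lost without HPPE replicate 2 (adjusted p 0.0609) or zinc protoporphyrin replicate 3 (0.0835), and the CBR1 call without either of these (0.125 and 0.134) or without zinc protoporphyrin replicate 2 (0.0546). AKR1B1 differed by 0.41 ± 0.15 (adjusted p 0.0683), and it was called in 5 of 22 alternatives, including those without DMSO control replicate 3 (0.0418), tin protoporphyrin replicate 1 (0.0491) or replicate 2 (0.0486). For EPHX1, UGDH and ABCC1 the differences were 0.31, 0.17 and 0.17 and were not called. This comparison ran along transcript length, with a Spearman correlation of -0.23 between log2 fold change and length across 16185 genes. With the length and GC correction the same 4 members were called and ABCC1 as well (0.28, adjusted p 0.00191).

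HPPE exceeded tin protoporphyrin in 2 members, where 0.745% of all genes were called higher and 0.709% lower. NQO1 was 5.10-fold higher (95% interval 4.19 to 6.22, adjusted p 1.1e-08) and OSGIN1 8.36-fold higher (6.62 to 10.6, adjusted p 2.55e-09), and both calls held in all 22 alternatives. The log2 differences were 1.05 ± 0.27 for AKR1C1 (adjusted p 0.067), 0.57 ± 0.18 for CBR1 (0.143) and 0.45 ± 0.13 for EPHX1 (0.106). The HPPE libraries lay above all tin libraries for each of these 3, a separation that was not counted over all genes. The length and GC correction called these 3 genes, at adjusted p-values of 0.0361, 0.038 and 0.0409. With no filter on low counts AKR1C1 (0.00639) and CBR1 (0.0103) were called. UGDH (0.06, 95% interval -0.09 to 0.22), ABCC1 (0.07, -0.08 to 0.22) and AKR1B1 (0.18, -0.12 to 0.48) were not called.

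Zinc and tin protoporphyrin share the porphyrin and differ in the metal. Between them, 0.00611% of all genes were called higher and 0% lower, with 2176 genes at an unadjusted p under 0.05. None of the 8 members was called by edgeR or by DESeq2, and none had an unadjusted p under 0.05. The 95% interval of the log2 difference, zinc minus tin, was -0.45 to 0.22 for NQO1, -0.25 to 0.61 for OSGIN1, -0.15 to 0.43 for EPHX1 and -0.27 to 0.05 for UGDH. It was -0.25 to 0.06 for ABCC1, -0.54 to 0.07 for AKR1B1, -1.22 to 0.20 for AKR1C1 and -0.66 to 0.17 for CBR1. For UGDH and ABCC1 the 3 tin libraries lay above the 3 zinc libraries, a separation that was not counted over all genes. Leaving out tin protoporphyrin replicate 2 gave 777 genes called higher and 676 called lower of 16909 tested, and 0 of the 8 members.

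**Figure D3:**
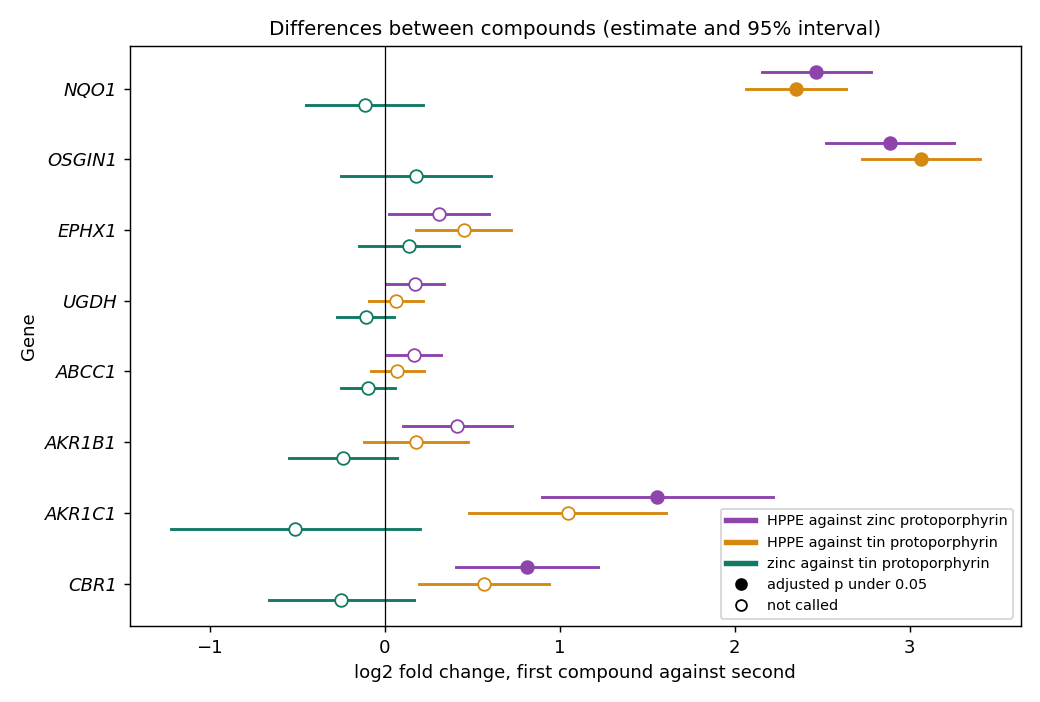
Log2 difference of each member (rows) between compounds, with 95% intervals from edgeR's quasi-likelihood fit; filled points have an adjusted p under 0.05. NQO1 and OSGIN1 lie above 2 for HPPE against either protoporphyrin, and every interval of zinc against tin protoporphyrin includes 0.

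The rest of the detoxification machinery was described from lists of the same roles, as counts from the same fit. Of 39 listed genes other than the members, 25 passed the filter. With HPPE 4 of the 25 were called higher (NQO2, AKR1C3, ABCC3 and ABCB6) and 0 lower, where 2.57% of all genes tested were called higher. The median log2 fold change of the 25 was 0.12, against 0.02 over all genes. With zinc and with tin protoporphyrin ABCC3 alone was called, where 1.84% and 1.9% of all genes were called higher. HPPE exceeded zinc protoporphyrin in 7 of the 25, where 6.44% of all genes were called higher. It exceeded tin protoporphyrin in 4 (NQO2, AKR1C3, ABCC3 and ABCB6), where 0.745% were called higher, and zinc against tin gave 0. Without HPPE replicate 2 the calls of NQO2 and ABCB6 were lost over zinc (adjusted p 0.0843 and 0.0634) and over tin (0.321 and 0.0578), while those of AKR1C3 and ABCC3 held in all 22 alternatives of both. NQO2 over zinc was also lost without HPPE replicate 3 (0.0566) or zinc protoporphyrin replicate 3 (0.123). NQO2 over tin (adjusted p 0.0482) was lost in 15 of 22 alternatives, among them the removal of DMSO control replicate 1 (0.0614) or 2 (0.0843), HPPE replicate 3 (0.212), zinc protoporphyrin replicate 1 (0.0707), 2 (0.0592) or 3 (0.0547) and tin protoporphyrin replicate 2 (0.147) or 3 (0.193).

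Among the quinone and carbonyl reductases, 4 of 9 tested genes rose with HPPE (NQO1, NQO2, AKR1C1 and AKR1C3, median 0.62), where 2.57% of all genes were called higher. With zinc or tin protoporphyrin 0 of the 9 were called. NQO2, a quinone reductase related to NQO1 that uses another cosubstrate, was at 9.79, 9.77 and 10.9 CPM in the controls and 14.3, 18.8 and 21.2 CPM with HPPE, a rise of 0.83 ± 0.18 (adjusted p 0.0113). That NQO2 call was lost without DMSO control replicate 1 (adjusted p 0.079) or 2 (0.085) and without HPPE replicate 2 (0.08) or 3 (0.0516). CBR3, the copy of CBR1, had at most 8 counts in a library, and AKR1B10, the NRF2-responsive relative of AKR1B1, was at 0 counts in every DMSO control and zinc protoporphyrin library and at most 2 elsewhere.

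None of the 10 tested conjugation genes was called with any compound against the control (HPPE median 0.27, with 8 of 10 positive). Of these 10, the glutathione transferase genes GSTA4 and GSTP1, named after their values were seen, were called higher with HPPE than with zinc protoporphyrin. In that comparison 6.44% of all genes were called higher. GSTA4 was at 30.8 ± 3.81 CPM in the controls, 38.6 ± 5.77 with HPPE and 23.8 ± 0.944 with zinc protoporphyrin. GSTP1 was at 228 ± 45.5, 279 ± 40.2 and 190 ± 18.3 CPM in the same order. Neither call was followed through the alternatives. The epoxide hydrolase and aldehyde dehydrogenase list gave 0 calls of 6 in all comparisons, and its HPPE log2 fold changes ran from -0.24 to 0.37, the value of EPHX1, with a median of 0.06.

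Of the 7 tested exporters, ABCC1, ABCC3 and ABCB6 rose with HPPE, where 2.57% of all genes tested were called higher. ABCC3, which carries glucuronides and bile salts, was at 11.2, 10.3 and 12.1 CPM in the controls, 53.4, 54.5 and 56.4 CPM with HPPE, 24.1, 17.8 and 20.5 CPM with zinc protoporphyrin and 22.3, 20.6 and 25.3 CPM with tin protoporphyrin. Every treated library lay above every control, the HPPE libraries lay above the rest, and zinc and tin overlapped. ABCC3 rose by 2.32 ± 0.13 with HPPE (adjusted p 3.81e-09), by 0.86 ± 0.14 with zinc (adjusted p 0.00384) and by 1.05 ± 0.13 with tin protoporphyrin (adjusted p 0.000183). The zinc call was lost without DMSO control replicate 2 (0.79, adjusted p 0.0517). ABCB6, a porphyrin transporter, rose with HPPE by 0.98 ± 0.22 (5.36 ± 1.76 to 11.3 ± 1.38 CPM, adjusted p 0.0151), a call lost without DMSO control replicate 1 (adjusted p 0.178) or HPPE replicate 2 (0.0968) or 3 (0.0545).

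**Figure D4:**
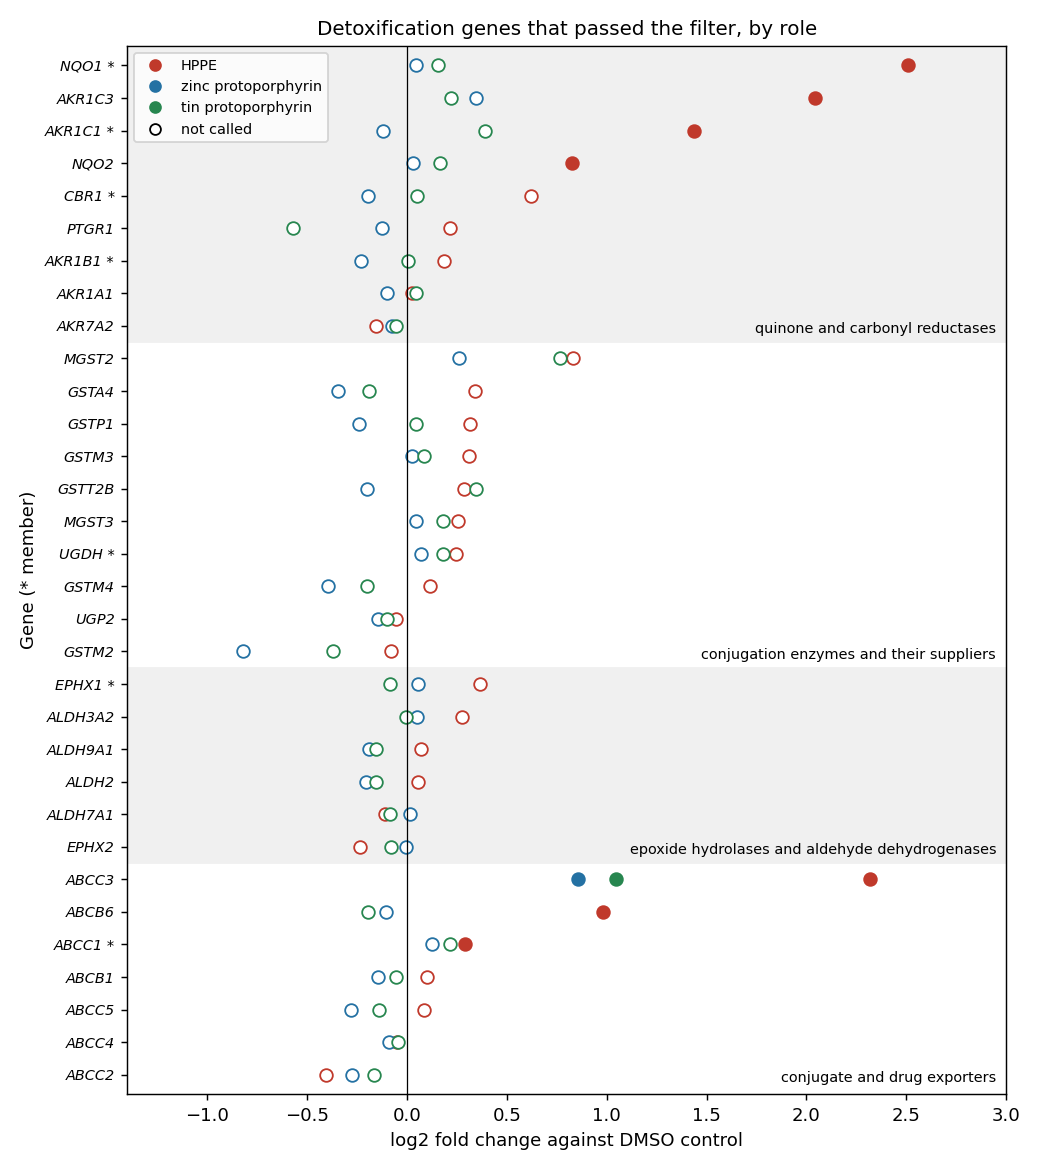
Log2 fold change against the DMSO control of the 32 tested detoxification genes (rows, members marked by an asterisk), grouped by role, with filled points at an adjusted p under 0.05. The reductases and exporters hold the filled HPPE points, ABCC3 is the gene filled for all 3 compounds, and the conjugation and epoxide or aldehyde genes have none.

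As a reference, 11 of 13 NRF2 targets outside detoxification were called higher with HPPE (median 0.99), HMOX1 and GCLM with zinc protoporphyrin, and 0 with tin protoporphyrin. Of all genes tested, 2.57% were called higher with HPPE, 1.84% with zinc and 1.9% with tin protoporphyrin. The zinc call of GCLM (0.56 ± 0.13, adjusted p 0.0311) was lost in 7 of 22 alternatives, among them those without DMSO control replicate 1 (adjusted p 0.092) or 2 (0.127), HPPE replicate 2 (0.0511) or zinc protoporphyrin replicate 2 (0.0518) or 3 (0.0552). Of 6 NRF2 regulators, KEAP1 (0.42 ± 0.09, adjusted p 0.0145) and MAFG (0.45 ± 0.08, adjusted p 0.00185) were called higher with HPPE, and NFE2L2 had 0.29 ± 0.10 (adjusted p 0.109) and BACH1 0.25 ± 0.12 (adjusted p 0.291). The KEAP1 call was lost without DMSO control replicate 1 (adjusted p 0.0635) or 2 (0.127), without HPPE replicate 2 (0.0795) or 3 (0.0782), and with these last libraries summed as 1 (0.0614). No regulator was called with zinc or tin protoporphyrin. NQO1 is also a target of the aryl hydrocarbon receptor, and it was the called gene among the 3 tested genes of that list. The others, CYP1B1 and TIPARP, named after their values were seen, had log2 fold changes of -0.56 ± 0.20 (adjusted p 0.129) and -0.14 ± 0.17 (adjusted p 0.706) with HPPE. CYP1A1, CYP1A2 and AHRR did not pass the filter. Whether this receptor moved NQO1 was not tested.

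The genes whose log2 CPM followed NQO1 most closely over the 12 libraries, among 10971 expressed genes, were HSPA8 (Pearson r 0.993), STIP1 (0.992), DNAJA1 (0.989), HSPD1 (0.981) and TXNRD1 (0.98). These describe likeness of pattern across libraries that fall into separate groups. HSPA8, STIP1, DNAJA1 and HSPD1 encode chaperones or co-chaperones, and TXNRD1 encodes thioredoxin reductase. Of the members, OSGIN1 came closest to NQO1 (0.965, in place 19). EPHX1 (0.822, place 183), AKR1C1 (0.814, place 198) and CBR1 (0.727, place 468) followed. UGDH (0.632, place 1012), ABCC1 (0.606, place 1222) and AKR1B1 (0.575, place 1505) came last of the members.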

How the data were processed

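The 8 genes and the gene lists were chosen with earlier results of these data known. The authors deposited raw read counts, 1 whole number for each gene and library, in 12 libraries; per the submitters' processing notes fastp 0.21.1, STAR 2.7.7a, featureCounts and GRCh38 were used, and their settings, the annotation release and the use of strand are not given in the sources used here. No value column fell outside the 12 libraries (0 unmapped columns). Of 60710 Ensembl IDs, 60437 matched a symbol in GENCODE release 29 (GRCh38), from which positions and transcript lengths were taken.

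Counts were analysed in R 4.3.3 with edgeR 4.0.16 (limma 3.58.1), with biopython 1.88 and pandas 2.3.3 for sequences and tables. The filter on low counts (filterByExpr, by group) kept 16366 genes with 99.6% of counts. Library sizes were scaled by TMM, and a robust quasi-likelihood model with 1 mean per group (biological coefficient of variation 0.0913) was fitted to the 4 groups of 3. The 6 comparisons were tested two-sided, p-values were adjusted by Benjamini-Hochberg over all genes tested, genes were called at an adjusted p under 0.05, and intervals cover 95%. The script was tested on simulated counts with known changes. Replicate numbers were not treated as pairs.

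Named genes were the 8 members, the near copies AKR1C2, AKR1C3, AKR1B10, CBR3 and NQO2, other listed genes called against the DMSO control, HMOX1, GCLM, NFE2L2, KEAP1 and BACH1, and the 5 genes with the highest Pearson correlation with NQO1 in log2 CPM (prior count 2) among tested genes with a mean above 3. The lists held reductases, conjugation enzymes, epoxide hydrolases with aldehyde dehydrogenases, exporters, other NRF2 targets, NRF2 regulators and aryl hydrocarbon receptor targets. Total counts per library set the precision: 3 counts equal 0.337 to 2.26 CPM.

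There were 22 alternatives: 20 planned (other filters, other scaling, DESeq2 1.42.0, non-robust estimation, 2 groups alone, a replicate block and leaving out each of the 12 libraries) and 2 added after seeing the data. The added ones were a correction by lowess trends (span 0.3) on transcript length and GC content, known for 98.9% of tested genes, and HPPE replicates 2 and 3 summed as 1 library. Sequence windows came from RefSeq (GRCh38.p14), and coding bases from GENCODE release 29.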

Additional observations from a re-analysis of the deposited data

How the results depend on the processing

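Of 1056 recomputed values of the members (8 genes, 6 comparisons, 22 alternatives), 1020 kept their side of the threshold, 18 lost the call, 18 gained it and 0 changed the direction of a called value. The calls of NQO1 and OSGIN1 for HPPE against each other group held in all 22. The number of members called with HPPE over the DMSO control was 4, and leaving out 1 library gave 2 to 5, with 2 without DMSO control replicate 2 or HPPE replicate 2. For HPPE over zinc protoporphyrin it was 4, and leaving out 1 library gave 2 to 5, with 2 without HPPE replicate 2 or zinc protoporphyrin replicate 3. With no filter on low counts, 1 member (OSGIN1) was called for zinc protoporphyrin and 4 for HPPE over tin protoporphyrin, in place of 0 and 2. With the length and GC correction 1 was called for zinc protoporphyrin, 1 (ABCC1) for tin protoporphyrin and 5 for HPPE over tin protoporphyrin. The cause of these changes was not tested.

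Same-numbered libraries of different groups deviated together with correlations from -0.68 to 0.52, and 3 of 12 libraries correlated best with their own number, so the numbers were not taken as pairs. With a replicate block the members called were 3 for HPPE (ABCC1 lost, adjusted p 0.0749), 0 for zinc and 0 for tin protoporphyrin, 4 for HPPE over zinc, 2 for HPPE over tin and 0 for zinc over tin. Over all genes the block gave 294 higher and 118 lower for HPPE, 124 and 9 for zinc, 191 and 18 for tin protoporphyrin, and 390 and 368 for HPPE over zinc and 78 and 61 for HPPE over tin.

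Counts over all genes are given as higher and lower, with the extremes over single left-out libraries where these moved the total by over 1.5 times. For HPPE they went from 421 higher and 241 lower to 215 and 69 without HPPE replicate 2, 626 and 480 without tin protoporphyrin replicate 2, 285 and 99 with HPPE replicates 2 and 3 summed and 707 and 513 when corrected for length and GC content. For zinc protoporphyrin they went from 301 and 68 to 71 and 1 without DMSO control replicate 2, 525 and 225 without tin protoporphyrin replicate 2, 570 and 334 with no filter and 574 and 320 with the correction. For tin protoporphyrin they went from 311 and 62 to 127 and 4 with only the 2 groups compared, 137 and 9 without DMSO control replicate 2, 390 and 237 without tin protoporphyrin replicate 2 and 541 and 245 with the correction. For HPPE over zinc they went from 1054 and 1024 to 100 and 73 without zinc protoporphyrin replicate 3, 1795 and 1722 without tin protoporphyrin replicate 2, 252 and 206 with HPPE replicates 2 and 3 summed, 1781 and 1405 with no filter and 2227 and 2040 with only the 2 groups compared. For HPPE over tin they went from 122 and 116 to 54 and 37 without HPPE replicate 2, 70 and 49 with the sum, 89 and 55 with only the 2 groups compared, 165 and 255 with no filter and 241 and 257 with the correction. For zinc over tin they went from 1 and 0 to 777 and 676 without tin protoporphyrin replicate 2, 70 and 200 with no filter and 4 and 16 with the correction. DMSO control replicate 3, HPPE replicate 3 and zinc protoporphyrin replicate 1 were shallow, and low genes such as AKR1C1 rest on few counts there.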
